A study of Mus musculus with 6 samples.

Results

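The 4 thrombospondin genes Thbs1 to Thbs4, the hyaluronan synthase genes Has1 and Has2, the versican gene Vcan, and the hyaluronan breakdown genes Hyal1, Hyal2 and Cemip were examined in cultured bone marrow mesenchymal stem cells (MSCs). They were taken by name from the expression tables, where all 10 of the 10 genes were found among 15063 listed genes. RNA-seq had been run on 3 libraries of cells from conditional Mapk7 knockout mice (CKO) and 3 of cells from wild-type mice (WT), all 3 weeks old. Mapk7 encodes the MAP kinase ERK5, and the series title sets it above Lrp6 and β-catenin in the balance between bone and fat. The CKO libraries and WT libraries 1 and 3 were from cells at passage 5, and WT library 2 was from cells at passage 7. WT libraries 1 and 2 carry the same animal label, whereas WT library 3 is given one animal number by its description and another by the header of its table. The sources used here do not give the Cre driver, or say whether libraries came from separate litters or culture days, and the p-values therefore reflect only how far these 6 libraries differ.

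Thrombospondins are secreted, calcium-binding matricellular proteins. Thrombospondins 1 and 2 form trimers that inhibit the growth of blood vessels, and thrombospondin 1 also activates latent TGF-β. Thrombospondins 3 and 4 belong, with the cartilage protein COMP, to the pentameric branch of the family, which is prominent in cartilage, tendon and muscle. Hyaluronan is a long, unsulfated sugar chain that synthases at the cell membrane extrude into the matrix. Versican is a large chondroitin sulfate proteoglycan that binds hyaluronan, and the complex forms a loose coat around mesenchymal cells. Hyaluronidases and CEMIP, also called KIAA1199 or HYBID, cut the chain.

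The libraries held 17751778 to 19345817 counted reads in CKO and 17351907 to 20689481 in WT. The values are RPKM, that is, reads scaled to gene length and library total. Mapk7 itself was at 5.59, 3.84 and 5.45 RPKM in CKO libraries 1 to 3, against 7.12, 6.76 and 9.07 RPKM in WT libraries 1 to 3, with every CKO library below every WT library (log2 difference −0.54, limma adjusted p = 0.505). That pattern was seen in 9.18% of all tested genes. WT library 2 stood apart: on the log2(RPKM + 1) scale its 24 cell cycle genes averaged 1.18, against 3.59 to 4.73 in CKO and 3.91 to 4.70 in the other WT libraries. All 24 had a positive log2 difference (CKO minus WT), as did 5950 of all 11085 tested genes, and their median of 0.91 turned to −0.10 without WT library 2. The Y-linked gene Ddx3y was near 0 in WT library 1 (0.0357 RPKM) and at 6.45 to 19.1 RPKM in the other 5 libraries. WT library 2 had 19.1 RPKM, so this gene goes against the shared animal label of WT libraries 1 and 2. Whether WT library 1 differed from the others in the sex of the animal was not tested. Of 12 stromal markers 11 passed the filter on low values, and Lepr was under 1 RPKM in every library. The stromal list averaged 5.06 to 6.34 in CKO and 6.52 to 6.73 in WT on the log2(RPKM + 1) scale, with every CKO library below every WT library. Of the 11 tested, 3 had a log2 difference above 0 and 8 below, with Lum (−3.82) and Dcn (−2.74) the lowest. The summed RPKM of the list was 7156, 3928 and 3335 in CKO libraries 1 to 3, against 6202 to 6847 in WT libraries. By this sum CKO library 1 was the highest of all, and CKO libraries 2 and 3 were below every WT library. All 22 monocyte and macrophage markers reached 1 RPKM in at least 1 library, and their average was 3.64, 2.68 and 4.85 in CKO libraries 1 to 3 and 3.81, 2.91 and 5.03 in WT libraries 1 to 3. Of 8 endothelial markers, 7 were under 1 RPKM in every library. The listed granulocyte markers summed to at most 9.42 RPKM in any library, the erythroid ones to at most 1.77 RPKM and the only listed lymphocyte marker, Cd79a, to at most 0.281 RPKM.

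None of the 10 genes passed the test between genotypes. Genes were tested with limma on log2(RPKM + 1) where at least 3 of the 6 libraries reached 1 RPKM, which kept 11085 genes and 9 of the 10, leaving Has1 out. At a Benjamini-Hochberg adjusted p under 0.05, 0 of the 9 passed, beside 0.00902% of all tested genes. At an unadjusted p under 0.05 there were 2 of the 9, beside 9.74% of all tested genes, and limma-voom on recovered reads also gave 0 past the adjusted threshold and 2 unadjusted. Of those 2, Thbs1 was lower in CKO (6.39% of all tested genes) and Cemip higher (3.36%). Thbs1 was the only one of the 9 whose groups did not overlap, with every CKO library below every WT library, a pattern seen in 9.18% of all tested genes; the opposite pattern was seen in 7.51%, and either in 16.7%. Of the 9 genes, 7 had a log2 difference (CKO minus WT) below 0 and 2 above, and their median was −0.32, against 0.03 over all tested genes. An exact permutation test over the 6 libraries has a smallest possible p of 0.1.

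**Figure D1:**
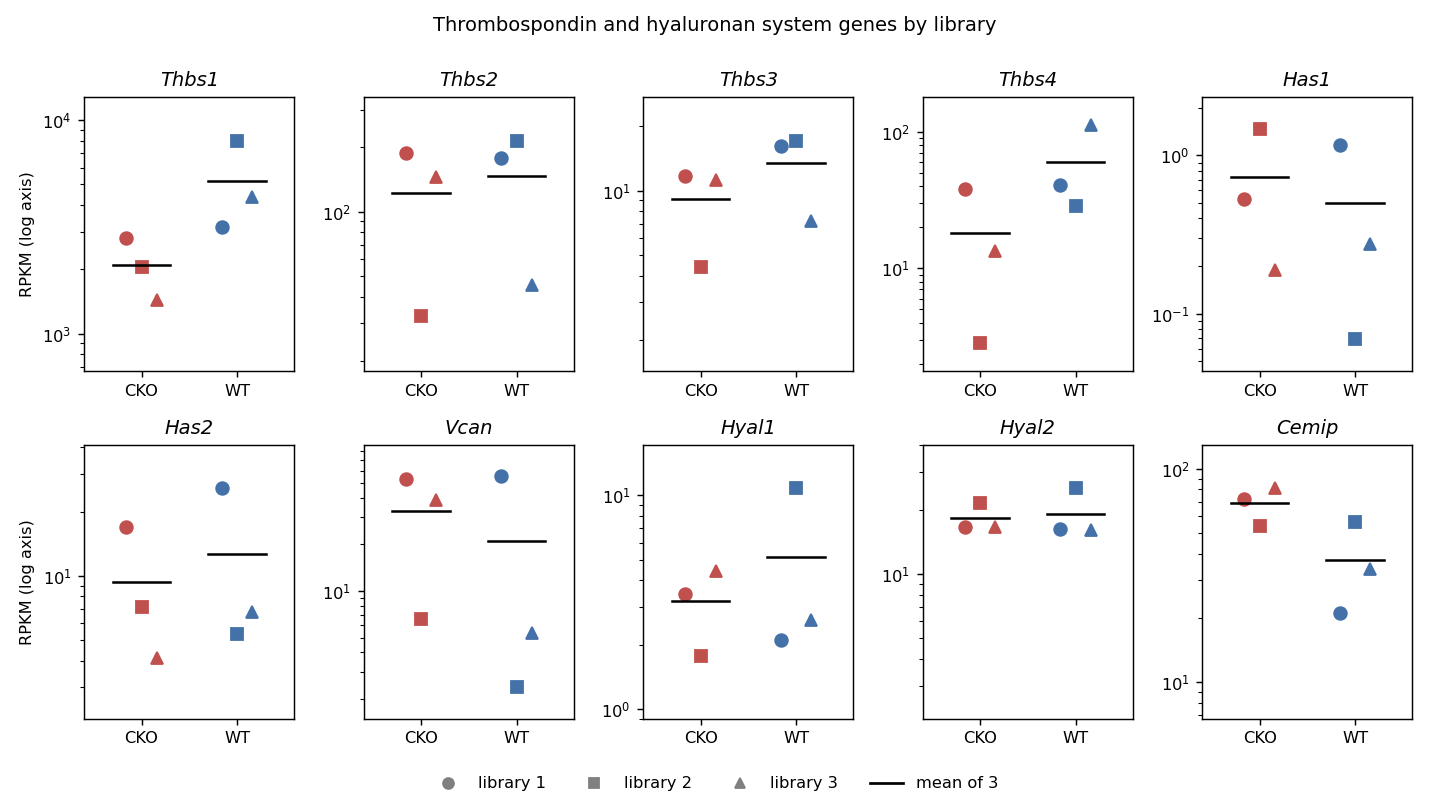
RPKM of each gene on a log axis, with CKO libraries left and WT libraries right of each panel; symbols mark libraries 1 to 3 and the bar is the mean of 3. The groups are apart only for Thbs1, whose CKO values end at 2794 RPKM, below the lowest WT value of 3163 RPKM.

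Several of these genes varied widely between libraries of the same genotype. The SD within groups, on the log2(RPKM + 1) scale, was 1.85 for Vcan, 1.39 for Thbs4, 1.28 for Thbs2 and 1.02 for Has2, against a median of 0.35 over all tested genes. That places Vcan above 99.5% of tested genes, Thbs4 above 98.2%, Thbs2 above 97.5% and Has2 above 95.6%. Hyal2, with an SD of 0.29, was the steadiest of the 9 and lay above 37.8% of tested genes. In bulk samples such as these, fewer cells of a type and less RNA per cell cannot be told apart.

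The promoters of 4 of the genes, chosen after their values were seen, are shown for what they share and where they differ: Thbs2 and Thbs3, whose levels were high and low in the same libraries, Vcan, which varied most, and Cemip, which had the lowest p. Each is 300 bases, from 250 before to 50 after the RefSeq start site, 5′ to 3′ on the gene's strand, in build GRCm38.p6. Capitals mark matches on either strand to TATAAA (the TATA box), CCACCC (the box bound by KLF factors), CTA and TAG with any 4 bases between them (the MEF2 site), CTTTGA (the TCF/LEF site) or TGANTCA (the AP-1 site). RefSeq promoters were matched for 8 of the 10 genes, the others being Thbs1 and Has2.
Thbs2, chr17:14694213-14694512, minus strand: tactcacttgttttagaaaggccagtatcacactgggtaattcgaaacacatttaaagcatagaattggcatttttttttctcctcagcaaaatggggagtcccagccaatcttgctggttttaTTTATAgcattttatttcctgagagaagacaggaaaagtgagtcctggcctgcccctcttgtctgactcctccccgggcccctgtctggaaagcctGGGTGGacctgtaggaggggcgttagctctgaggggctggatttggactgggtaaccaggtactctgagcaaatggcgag
Thbs3, chr3:89214930-89215229, plus strand: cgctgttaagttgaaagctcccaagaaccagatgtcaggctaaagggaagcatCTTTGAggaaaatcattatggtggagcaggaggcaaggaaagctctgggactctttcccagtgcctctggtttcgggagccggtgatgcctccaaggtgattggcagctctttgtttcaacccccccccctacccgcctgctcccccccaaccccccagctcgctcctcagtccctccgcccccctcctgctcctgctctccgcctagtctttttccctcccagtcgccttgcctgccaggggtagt
Vcan, chr13:89742463-89742762, minus strand: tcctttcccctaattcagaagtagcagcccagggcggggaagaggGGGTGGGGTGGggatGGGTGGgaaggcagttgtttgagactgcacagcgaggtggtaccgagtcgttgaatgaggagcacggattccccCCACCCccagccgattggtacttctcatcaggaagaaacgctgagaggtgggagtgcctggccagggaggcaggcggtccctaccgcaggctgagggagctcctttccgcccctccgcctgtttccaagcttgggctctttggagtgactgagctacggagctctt
Cemip, chr7:84086456-84086755, minus strand: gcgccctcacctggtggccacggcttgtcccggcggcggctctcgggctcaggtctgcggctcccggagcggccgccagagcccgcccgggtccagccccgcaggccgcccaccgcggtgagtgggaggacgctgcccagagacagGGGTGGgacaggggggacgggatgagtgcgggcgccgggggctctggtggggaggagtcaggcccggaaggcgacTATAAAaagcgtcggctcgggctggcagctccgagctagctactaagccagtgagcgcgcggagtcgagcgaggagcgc
The CACCC box was found in 7 of the 8 promoters, all but Thbs3, and in 31.5% of all 32851 promoters of this length. Vcan held 4 matches, at positions −205, −200, −190 and −116 from the start site, of which the 2 most distant overlap by 1 base. The TATAAA motif occurred at −29 in Cemip and, on the opposite strand, at −126 in Thbs2, and in 13.6% of all promoters. The only TCF/LEF match was at −197 in Thbs3 (16% of all promoters). No MEF2 or AP-1 match was found in the 8 windows, against 3.69% and 7.81% of all promoters. The Thbs2 promoter was at 48.3% GC with 4 CpG dinucleotides, and Cemip at 73.7% with 33, beside medians of 52.7% and 7 over all promoters. The rest of the 8 lay between 57% and 72% GC. The shares of all promoters with a motif, such as 31.5% for the CACCC box, were not matched for GC content. These matches describe letters only.

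Thbs1, the main thrombospondin of these cultures, was at 2794, 2060.4 and 1444.5 RPKM in CKO libraries 1 to 3 and at 3163, 8011 and 4354 RPKM in WT libraries 1 to 3. All CKO values lay below all WT values, although CKO library 1 and WT library 1 were close. The means were 2099.6 ± 676 RPKM in CKO and 5176 ± 2526 RPKM in WT (SD, n = 3 each), a WT mean 2.47 times the CKO mean. Thbs1 was the most abundant listed gene in WT library 2 and ranked 2nd in WT libraries 1 and 3, while in CKO libraries 1 to 3 it ranked 3, 20 and 25 among 15063 genes. It took 0.845 to 1.63% of all counted reads in CKO libraries and 1.85 to 4.68% in WT libraries. The log2 difference was −1.24 (SE 0.50, 95% interval −2.41 to −0.08), with an unadjusted limma p of 0.0394 and an adjusted p of 0.486. It lay between −1.54 and −0.87 when any 1 library was left out. The smallest difference came without the passage 7 library, WT library 2, where Thbs1 was highest and the cell cycle genes were lowest. The log2 average of the stromal marker list was also lower in every CKO library than in every WT library, although its markers differed in direction. The part of this list in the Thbs1 difference was not tested.

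Thbs1 was the most abundant thrombospondin gene per length in every library. Its share of the summed RPKM of Thbs1 to Thbs4 was 92.1, 98.1 and 89.5% in CKO libraries 1 to 3 and 93.1, 96.9 and 96.4% in WT libraries 1 to 3. The groups overlapped, and the mean difference of −2.18 percentage points gave p = 0.6 in an exact two-sided permutation test. The 2 trimeric genes did not keep a fixed ratio: Thbs1 exceeded Thbs2 14.8-, 63.3- and 9.96-fold in CKO libraries 1 to 3 and 17.7-, 37.3- and 95.8-fold in WT libraries 1 to 3. The log2 ratio of Thbs1 to Thbs2, taken on RPKM + 1, averaged 4.38 ± 1.39 in CKO and 5.30 ± 1.21 in WT (SD), which an exact permutation test gave as p = 0.4.

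Thbs2, the other trimeric member, was at 188, 32.5 and 145 RPKM in CKO libraries 1 to 3 and at 179, 215 and 45.4 RPKM in WT libraries 1 to 3. Each genotype held 2 high libraries and 1 low one, CKO library 2 and WT library 3, so the groups overlapped throughout. The log2 difference was −0.32 (SE 0.82, 95% interval −2.25 to 1.62, limma adjusted p = 0.91), and it turned to 0.45 without CKO library 2.

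Thbs3, a pentameric member, was also lowest in those 2 libraries. It was at 11.7, 4.38 and 11.2 RPKM in CKO libraries 1 to 3 and at 16.2, 17.1 and 7.20 RPKM in WT libraries 1 to 3. WT library 2 was the highest for Thbs3, as it was for Thbs2, and Thbs2 stood 6.32- to 16.2-fold above Thbs3 across the 6 libraries. Its log2 difference was −0.54 (SE 0.44, 95% interval −1.57 to 0.49, limma adjusted p = 0.70), and it lay between −0.91 and −0.13 with 1 library left out, smallest without CKO library 2.

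The likeness of such profiles was measured as the root mean square difference between log2(RPKM + 1) values over the 6 libraries after each gene's mean was removed, and a small value means similar profiles. It also depends on how far a gene itself varies, so a steady gene has small values and values of different members are not comparable. Thbs3 was nearest Thbs2 among the other tested members, at 0.51, and it was the 14th nearest of all tested genes to Thbs2. In the other direction, Thbs2 was only the 1637th nearest of all tested genes to Thbs3. The root mean square deviation of each gene from its own mean was 1.06 for Thbs2 and 0.61 for Thbs3, so 0.51 is not small beside the latter. The gene nearest to Thbs3 was Lrp1, at 0.14. Lrp1 encodes an endocytic receptor that takes up thrombospondins 1 and 2 among many ligands, and it was at 127, 48.3 and 103 RPKM in CKO libraries 1 to 3 and at 175, 205 and 85.4 RPKM in WT libraries 1 to 3. Robo1, an axon guidance receptor gene, followed at 0.17. Nearest to Thbs2 were Lnpep, a membrane aminopeptidase gene, at 0.30, and Adamts9, which encodes a protease that cuts versican, at 0.37. Thbs1 had a different profile, nearest to Sspn, the sarcospan gene, at 0.09, and to the glycosyltransferase gene B3gnt9 at 0.13. These are descriptions over 6 libraries, picked from 11085 genes.

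**Figure D2:**
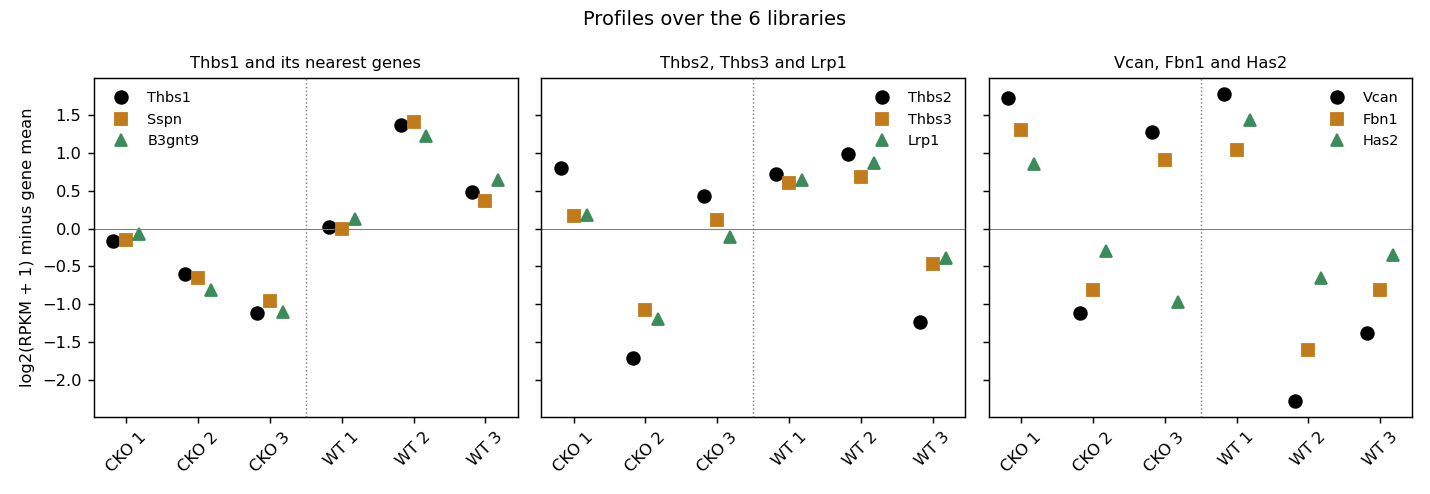
Values of log2(RPKM + 1) minus the gene's own mean in each of the 6 libraries, CKO left of the dotted line and WT right of it, for Thbs1 with its 2 nearest genes, for Thbs2, Thbs3 and Lrp1, and for Vcan, Fbn1 and Has2. Thbs2, Thbs3 and Lrp1 are lowest in CKO library 2 and next lowest in WT library 3, and Vcan and Fbn1 are high in CKO libraries 1 and 3 and WT library 1.

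Thbs4, the second pentameric member, was at 38.2, 2.83 and 13.3 RPKM in CKO libraries 1 to 3 and at 40.6, 28.8 and 112 RPKM in WT libraries 1 to 3. The groups overlapped through CKO library 1, which was above WT library 2. The means were 18.1 ± 18.2 RPKM in CKO and 60.4 ± 45.01 RPKM in WT (SD, n = 3 each), and the log2 difference of −2.01 (SE 0.87, 95% interval −4.07 to 0.06) had an adjusted limma p of 0.527. The difference was −1.13 without CKO library 2, where 175 reads were counted for the gene, and −2.81 without CKO library 1. The nearest profiles were those of Cdsn, the corneodesmosin gene, at 0.48, and Folr2, a folate receptor gene of some tissue macrophages, at 0.61. Thbs4 and the macrophage marker average were both highest among WT libraries in WT library 3, whereas among CKO libraries Thbs4 was highest in library 1 and the markers in library 3. The part of other cells in the Thbs4 values was not tested.

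Of the hyaluronan synthases, Has2, which makes long chains and is the main synthase of mesenchymal tissue, was the one clearly present. Has2 was at 16.9, 7.11 and 4.11 RPKM in CKO libraries 1 to 3 and at 25.7, 5.33 and 6.79 RPKM in WT libraries 1 to 3. Library 1 was the highest of each genotype, and the groups overlapped. The log2 difference was −0.28 (SE 0.66, 95% interval −1.83 to 1.27, limma adjusted p = 0.904), and leaving out 1 library at a time gave −0.77 to 0.37. The extremes came when either library 1 was removed, CKO for the lowest and WT for the highest. The nearest profiles were those of Atp2b4, a plasma membrane calcium pump gene, at 0.31 and Apcdd1, a Wnt inhibitor gene, at 0.34.

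Has1 was at 0.530, 1.46 and 0.188 RPKM in CKO libraries 1 to 3 and at 1.16, 0.0693 and 0.275 RPKM in WT libraries 1 to 3. These values rest on 3 to 59 reads per library, and Has1 reached 1 RPKM only in CKO library 2 and WT library 1, so it was not tested. Spaca6 overlaps Has1 in the RefSeq annotation, and without a stated use of strand the 2 genes may share reads. Has2 held 97.0, 83.0 and 95.6% of the summed RPKM of Has1 and Has2 in CKO libraries 1 to 3 and 95.7, 98.7 and 96.1% in WT libraries 1 to 3. The lowest share, in CKO library 2, came with the highest Has1 level, and the groups overlapped (exact permutation test, p = 0.4). Has3, the remaining synthase gene, had 0 to 11 reads per library. In WT library 3, where it was listed at 0, a count of 0 allows up to 3 reads, or 0.0385 RPKM.

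Vcan, the versican gene, had the widest spread within groups of the 9 tested members. It was at 53.1, 6.59 and 38.8 RPKM in CKO libraries 1 to 3 and at 55.3, 2.39 and 5.35 RPKM in WT libraries 1 to 3. CKO libraries 1 and 3 and WT library 1 were high, the other 3 were low, and the groups overlapped. Between 728 and 14802 reads were counted for Vcan per library. The log2 difference was 1.25 (SE 1.15, 95% interval −1.48 to 3.98, limma adjusted p = 0.733). Removing WT library 1 gave 2.45 and removing CKO library 2 gave 2.12, whereas removing WT library 2 gave 0.43 and removing CKO library 1 gave 0.71.

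The tested gene nearest to Vcan in profile was Fbn1, at 0.54. Fbn1 encodes fibrillin 1, a microfibril protein that binds versican, and it was at 186, 42.5 and 142 RPKM in CKO libraries 1 to 3 and at 155, 24.1 and 42.3 RPKM in WT libraries 1 to 3. It was high in the same 3 libraries. Gzmc, a granzyme gene, was the next nearest at 0.58. The levels of Vcan and Has2 did not keep a fixed ratio: that of Vcan to Has2 was 3.14, 0.926 and 9.43 in CKO libraries 1 to 3 and 2.15, 0.448 and 0.787 in WT libraries 1 to 3.

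The hyaluronidase genes were low to moderate and overlapped between genotypes. Hyal2, which encodes a GPI-anchored enzyme that cuts long hyaluronan at the cell surface, was at 16.6, 21.5 and 16.5 RPKM in CKO libraries 1 to 3 and at 16.2, 25.2 and 16.1 RPKM in WT libraries 1 to 3. Library 2 was the highest of each genotype. The log2 difference of −0.05 (SE 0.25) had a 95% interval of −0.63 to 0.53, the narrowest of the 9 genes, and a limma adjusted p of 0.959. Slc12a4, a potassium chloride cotransporter gene, and Nthl1, a DNA repair gene, had the nearest profiles, each at 0.04. Hyal2 itself deviated from its own mean by a root mean square of only 0.24, against 1.64 for Vcan.

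Hyal1, which encodes the lysosomal enzyme that acts on shorter chains, was at 3.44, 1.77 and 4.41 RPKM in CKO libraries 1 to 3 and at 2.11, 10.8 and 2.60 RPKM in WT libraries 1 to 3. The passage 7 library was the highest, and the other WT libraries lay within the CKO range. The log2 difference was −0.33 (SE 0.54, 95% interval −1.59 to 0.93, limma adjusted p = 0.855), and it was 0.28 without WT library 2. In RefSeq, Naa80 and Hyal3 overlap Hyal1, so its reads may be shared with them. Hyal2 exceeded Hyal1 3.75- to 12.2-fold in CKO libraries and 2.33- to 7.67-fold in WT libraries.

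Cemip, whose product binds hyaluronan and is needed for its breakdown in skin and synovial fibroblasts, had the lowest p of the 9. It was at 72.1, 53.8 and 81.1 RPKM in CKO libraries 1 to 3 and at 21.1, 56.6 and 34.0 RPKM in WT libraries 1 to 3. The only overlap was between CKO library 2 and WT library 2, which differed by less than 3 RPKM. The means were 69.0 ± 13.9 RPKM in CKO and 37.2 ± 17.95 RPKM in WT (SD, n = 3 each), a ratio of 1.85. The log2 difference was 0.96 (SE 0.37, 95% interval 0.09 to 1.84), with an unadjusted limma p of 0.035 and an adjusted p of 0.466. It ranged from 0.62, when WT library 1 was removed, to 1.31, when WT library 2 was removed, and was positive under every alternative run. Cemip was above Hyal2 in all 6 libraries, 2.50- to 4.91-fold in CKO and 1.304- to 2.25-fold in WT. The nearest profiles were Lama5, a laminin chain gene, at 0.21 and Iglon5 at 0.26. Cemip2, which encodes a cell surface hyaluronidase formerly called TMEM2, was at 13.6, 5.00 and 8.63 RPKM in CKO libraries 1 to 3 and at 16.1, 8.18 and 6.17 RPKM in WT libraries 1 to 3, with overlapping groups (log2 difference −0.14, SE 0.43).

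**Figure D3:**
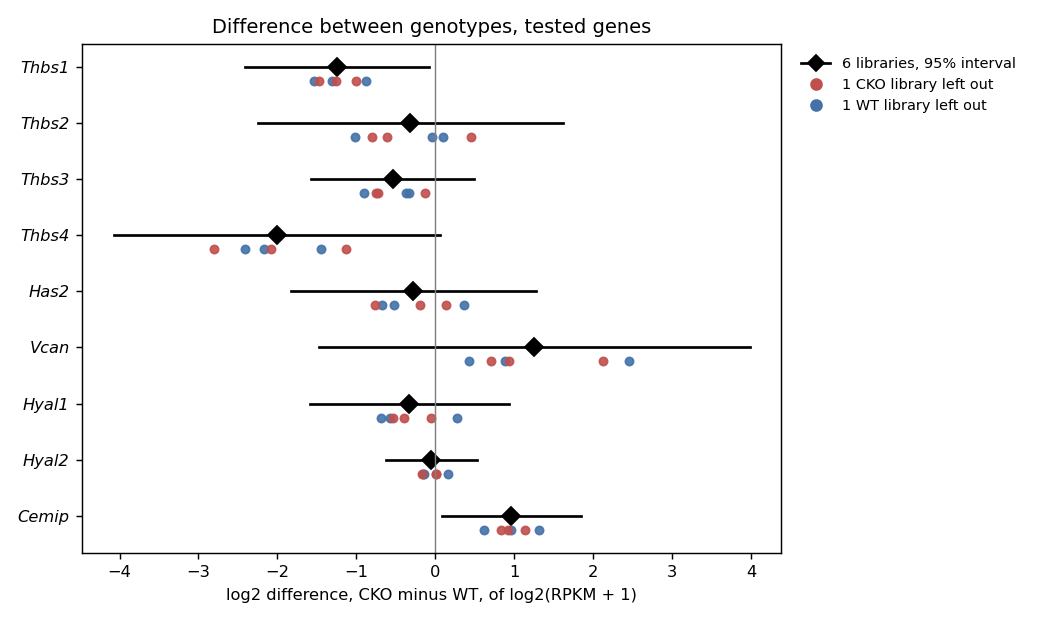
Difference between genotypes of the 9 tested genes, CKO minus WT, on the log2(RPKM + 1) scale: diamonds are the values from 6 libraries with 95% intervals, and dots the values with 1 library left out. The intervals of Thbs1 (−2.41 to −0.08) and Cemip (0.09 to 1.84) leave out 0 before adjustment, and the dots of Thbs2, Has2, Hyal1 and Hyal2 lie on both sides of 0.

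Genes that work with thrombospondins were compared next. None of the 13 tested receptors and relatives passed, with 7 above and 6 below 0 and a median log2 difference of 0.05. Comp and Tgfb1 had an unadjusted p under 0.05, beside 9.74% of all tested genes, and limma-voom called 0. Comp, the cartilage member of the thrombospondin family, was at 4.44, 3.24 and 0.167 RPKM in CKO libraries 1 to 3 and at 152, 1707 and 338 RPKM in WT libraries 1 to 3. The groups were far apart, with every CKO library below every WT library, as in 9.18% of all tested genes. The log2 difference of Comp, −7.22 (SE 0.95), had an adjusted limma p of 0.117. With WT libraries 1 and 2 merged, which rests on the shared animal label that Ddx3y goes against, the difference was −7.12 and passed (adjusted p = 0.0179, within 0.0179 to 0.545 over all alternatives). Tgfb1, whose latent product thrombospondin 1 activates, was at 15.5, 15.7 and 16.8 RPKM in CKO libraries 1 to 3 and at 19.8, 26.0 and 32.9 RPKM in WT libraries 1 to 3 (log2 difference −0.65, limma adjusted p = 0.424). Itgb1, the integrin β1 gene, lay higher in every CKO library, at 403 to 596 RPKM in CKO and 343 to 380.4 RPKM in WT (limma adjusted p = 0.607). That pattern was seen in 7.51% of all tested genes. Cd47 and Cd36, receptor genes for thrombospondin 1, overlapped, at 4.56 to 19.0 and 1.66 to 17.8 RPKM in CKO and at 6.41 to 11.4 and 0.768 to 9.33 RPKM in WT. Both were highest in CKO library 3, where the macrophage marker average was 4.85. That average was highest, at 5.03, in WT library 3, where Cd47 was at 8.12 and Cd36 at 6.89 RPKM, below their values in WT library 1. The part of macrophages in these values was not tested.

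Genes that bind hyaluronan went in different directions, and none of the 13 tested passed. Their median log2 difference was −0.35, with 5 above and 8 below 0, and limma-voom called 0. Hapln1 and Cd44 had an unadjusted p under 0.05, beside 9.74% of all tested genes. Hapln1, the link protein gene that locks versican or aggrecan onto hyaluronan, was at 1.74, 0.501 and 0.0109 RPKM in CKO libraries 1 to 3 and at 10.8, 20.7 and 10.3 RPKM in WT libraries 1 to 3. Its log2 difference of −3.15 (SE 0.43) had a limma adjusted p of 0.117, and without CKO library 1 it was −3.53 and passed (adjusted p = 0.036, within 0.036 to 0.515 over all alternatives). On recovered reads limma-voom gave −5.70 for Hapln1. Cd44, the main hyaluronan receptor gene, was at 70.1, 126 and 67.1 RPKM in CKO libraries 1 to 3 and at 55.8, 15.6 and 50.5 RPKM in WT libraries 1 to 3. Every CKO library was above every WT library, as in 7.51% of all tested genes. The log2 difference was 1.22 (SE 0.51, limma adjusted p = 0.507), or 0.65 without WT library 2. Tnfaip6, which encodes TSG-6, a hyaluronan-binding protein, overlapped, at 5.36 to 19.7 RPKM in CKO and 2.17 to 12.02 RPKM in WT. Layn, the layilin gene, was at 6.95 to 9.73 RPKM in CKO and 8.51 to 20.8 RPKM in WT.

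The 10 tested genes of hyaluronan precursor synthesis had a median log2 difference of 0.20, with 6 above and 4 below 0 and none past the test by either limma fit. Of these 1, Gnpnat1, had an unadjusted p under 0.05, beside 9.74% of all tested genes. Gnpnat1, an enzyme gene of UDP-N-acetylglucosamine synthesis, was at 13.0, 13.9 and 34.4 RPKM in CKO libraries 1 to 3 and at 11.1, 6.75 and 10.6 RPKM in WT libraries 1 to 3 (log2 difference 0.92, limma adjusted p = 0.512, and 0.49 without CKO library 3). Hk2, a hexokinase gene, was at 9.81 to 31.6 RPKM in CKO and 3.00 to 10.6 RPKM in WT. The 5 tested genes of the breakdown list, which leaves out Hyal1, Hyal2 and Cemip, had log2 differences below 0, as did 5135 of all 11085 tested genes, and their median was −0.38; none passed in either limma fit, and 0 had an unadjusted p under 0.05. Hexa, a lysosomal hexosaminidase gene, was at 56.0, 71.7 and 87.5 RPKM in CKO libraries 1 to 3 and at 68.4, 228 and 141 RPKM in WT libraries 1 to 3 (log2 difference −0.87, adjusted p = 0.582, and −0.47 without WT library 2). Mrc2, an endocytic collagen receptor gene included in that list, was at 40.8 to 57.1 RPKM in CKO and 59.0 to 79.8 RPKM in WT.

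Versican proteases and partners had 9 tested genes, 5 above and 4 below 0, with a median of 0.04; none passed in either limma fit, and 0 had an unadjusted p under 0.05. Fbln2, a fibulin gene whose product binds versican, was at 434, 392 and 571 RPKM in CKO libraries 1 to 3 and at 315, 10.2 and 178 RPKM in WT libraries 1 to 3. Every CKO library was above every WT library, as in 7.51% of all tested genes, and the passage 7 library was far below the rest. The log2 difference was 2.42 (SE 1.16, limma adjusted p = 0.558), or 0.95 without the passage 7 library. Adamts5, an aggrecanase gene whose product also cuts versican, was at 8.08 to 26.6 RPKM in CKO and 26.3 to 30.6 RPKM in WT. Egfr was at 10.8 to 15.9 RPKM in CKO and 14.9 to 19.2 RPKM in WT.

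**Figure D4:**
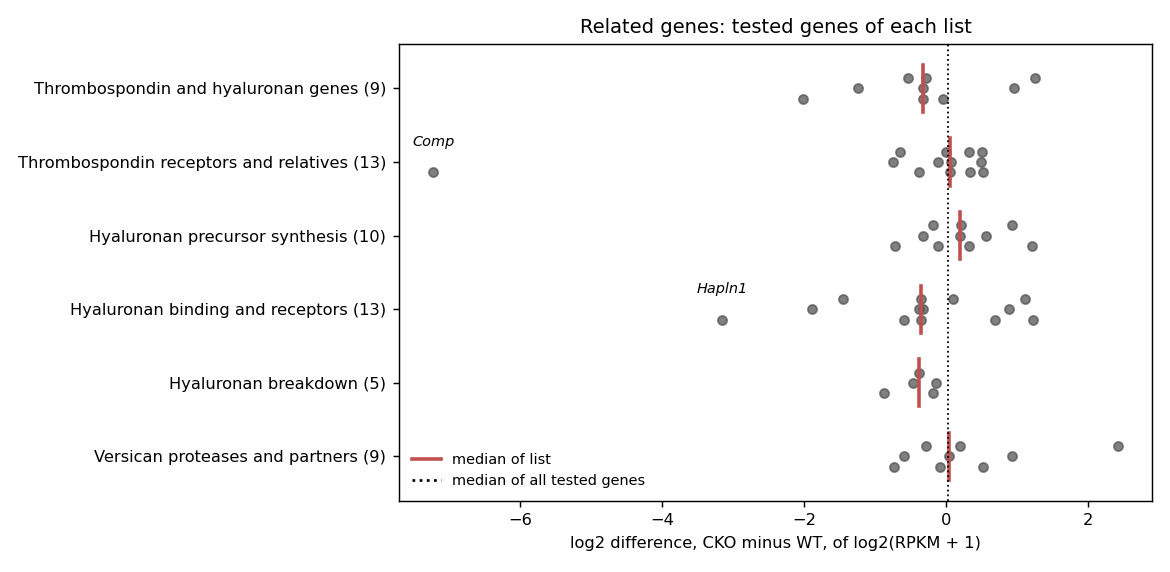
Log2 difference (CKO minus WT) of every tested gene of the thrombospondin and hyaluronan set and of 5 related lists, with the number tested in brackets; red bars are list medians and the dotted line is the median of all tested genes. List medians run from −0.38 to 0.20 around the median of 0.03 over all tested genes, with Comp at −7.22 and Hapln1 at −3.15 far to the left.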

How the data were processed

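The deposited values, which the file headers call only expression, were read as RPKM. Whole reads came back for 15060 of 15063 genes (99.98%) under a common total in each library and a constant length for each gene, within 0.01 read or a relative error of 1e-07, against 0% of 500 shuffled sets. Per the submitters' processing notes, reads were placed on mm9. The sources used here do not give the aligner, counter, annotation or use of strand, so overlapping genes may share reads. Counting intervals and floors cover counting error only.

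Groups and replicate numbers came from the sample titles. Expression was tested on log2(RPKM + 1) with limma 3.58.1 in R 4.3.3 (genotype only, intensity trend, robust moderation, two-sided), in genes with at least 1 RPKM in at least 3 libraries, with Benjamini-Hochberg adjustment over all 11085 genes and a threshold of 0.05. This scale understates the change of low genes. Genes named are the 10 members, up to 4 per list with the lowest p, 8 preset partners and the 2 nearest profiles of members averaging at least 10 RPKM. Members and lists were chosen with earlier results of these data known. Promoters are RefSeq's, build GRCm38.p6. The fit was also run on simulated data with independent noise, which cannot show how it behaves where genes vary together, as in these libraries.

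Alternatives were no filter, a filter at 5 RPKM, a pseudocount of 0.1, median centring, quantile normalization, plain limma, limma-voom on recovered reads, WT libraries 1 and 2 merged, the replicate number as a block, and each library left out.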

Additional observations from a re-analysis of the deposited data

How the results depend on the processing

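No member passed the adjusted threshold under any of the 15 alternatives (0 in each). Over all genes, the count of 1 became 0 without a filter, with a pseudocount of 0.1, with the replicate block and with limma-voom on recovered reads, 2 after median centring or quantile normalization, 4 with the filter at RPKM 5 and 50 with WT libraries 1 and 2 merged. It was 0 to 24 with 1 library left out. Where the count was 0, between 642 and 1399 genes had an unadjusted p under 0.05. In the replicate block fit neither Thbs1 nor Cemip had an unadjusted p under 0.05, and 1 other member, Thbs4, did. The deviations of same-numbered libraries from their group means had correlations of 0.198, 0.0145 and −0.0192. CKO library 1 and WT library 1 were each other's closest library over the tested genes (r = 0.972). With so few libraries these values cannot show whether same-numbered libraries share a batch or pairing. Signs turned for Thbs2 (0.028 with the WT libraries merged, 0.093 without WT library 2, 0.45 without CKO library 2, and −1.01 at the other end of its leave-one-out range), Has2 (0.37 without WT library 1, 0.14 without CKO library 3; lowest −0.77), Hyal1 (0.28 without WT library 2; lowest −0.69) and Hyal2 (0.0036 merged, 0.16 without WT library 2, 0.0098 and 0.012 without CKO libraries 1 and 3; lowest −0.17). They also turned for Cd47 (−0.10 and −0.43, highest 0.49) and Cd36 (−0.45 and −0.42, highest 0.99) without WT library 2 and CKO library 3, and for Cemip2 (0.22 without WT library 1, 0.19 without CKO library 2). Thbs1, Thbs3, Thbs4, Vcan and Cemip kept their sign in all. The number past the threshold became 1 for thrombospondin receptors and relatives with the WT libraries merged and 1 for hyaluronan binding genes without CKO library 1. The share of Thbs1 (CKO minus WT) ranged from −4.61 to −0.298 percentage points, that of Has2 from −7.53 to −0.548, and the log2 ratio of Thbs1 to Thbs2 from −1.71 to −0.298 with 1 library left out. The cause of these shifts was not tested.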

Other observations

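Some genes next to the members had their highest values in other libraries. Mtx1, the metaxin gene next to Thbs3 in the RefSeq order, was at 21.7, 33.1 and 20.3 RPKM in CKO libraries 1 to 3 and at 24.4, 21.5 and 25.8 RPKM in WT libraries 1 to 3, so it was highest in CKO library 2, where Thbs3 was lowest at 4.38 RPKM. Mtx3, next to Thbs4, was at 2.22 to 5.67 RPKM in CKO and 3.57 to 4.78 RPKM in WT. It was lowest in CKO library 2, as was Thbs4 at 2.83 RPKM. Mtx3 was highest in CKO library 1, whereas Thbs4 was highest in WT library 3. Hapln1 lies next to Vcan on chromosome 13. In CKO library 3 Hapln1 was at 0.0109 RPKM and Vcan at 38.8 RPKM, while in WT library 2 Hapln1 was at 20.7 RPKM and Vcan at 2.39 RPKM. Naa80, which overlaps Hyal1, was at 6.83 to 9.62 RPKM in CKO and 7.34 to 13.7 RPKM in WT, and, like Hyal1, was highest in WT library 2. The neighbours were chosen after the values of the members were seen.

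Of 10 megakaryocyte and platelet markers, a cell type known to hold thrombospondin 1, 5 were listed, and they differed in pattern. Gp1bb was at 0.633 to 0.892 RPKM in CKO and 1.34 to 1.55 RPKM in WT, and Treml1 at 0.0428 to 0.167 RPKM in CKO and 0.233 to 0.747 RPKM in WT. For both every CKO library was below every WT library, a pattern seen in 9.18% of all tested genes. Both were at low levels: Gp1bb had a limma adjusted p of 0.496, and Treml1 was under the filter and not tested. Pf4 was at 18.1, 12.8 and 210.1 RPKM in CKO libraries 1 to 3 and at 44.2, 0.0822 and 12.7 RPKM in WT libraries 1 to 3. Ppbp was at 2.53 to 19.5 RPKM in CKO and 0.625 to 15.5 RPKM in WT, and Itga2b at 0.917 to 1.33 RPKM in CKO and 0.486 to 1.84 RPKM in WT, with overlapping groups. The part of these cells in the Thbs1 values was not tested.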
